A study of Mus musculus with 8 samples.

Results

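Fc gamma receptors are the cell surface receptors through which monocytes and macrophages bind the constant part of immunoglobulin G. The genes described are Fcgr1, Fcgr3 and Fcgr4, which encode activating receptors, Fcer1g, which encodes their shared signalling chain, and Fcgr2b, which encodes the inhibitory receptor. They were chosen by name, each from the probe set row that the platform annotation gives to that symbol alone, and make up 5 of the 22180 genes measured. Each had 1 such row, so no choice between rows was needed. Levels were measured on 8 arrays, 1 per mouse, in cells sorted as CD45+ CD11b+ Ly6Chi, the surface profile of inflammatory monocytes and macrophages. In the irradiated group, 4 female C57BL/6 mice, 8 weeks old, had received 20 Gy to a subcutaneous tumour 1 day before harvest. In the sham group, 4 mice of the same sex, age and strain carried the same kind of tumour and had a sham treatment. All tumours had grown for 14 days under the skin from tumour cell line 152, a single line from KPC mice (KrasLSL-G12D/+, Trp53LSL-R172H/+, Pdx1-Cre), so neither a second line nor a tumour in the pancreas enters the comparison.

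The activating receptors carry little signalling sequence of their own. They assemble with a dimer of the common gamma chain, the product of Fcer1g, whose ITAM tyrosines are phosphorylated by Src family kinases when bound antibody draws receptors together, after which the kinase Syk starts phagocytosis, the oxidative burst and cytokine release. Fcgr2b carries an ITIM instead and recruits the lipid phosphatase SHIP1, which dampens these signals. The balance of activating and inhibitory receptors sets how strongly a myeloid cell answers antibody-coated targets, tumour cells among them. Fcgr1 encodes CD64, the high-affinity receptor, which interferon gamma induces. Fcgr3 encodes CD16, a low-affinity receptor, and Fcgr4 encodes the mouse receptor for IgG2a and IgG2b.

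Fcgr2b, Fcgr4 and Fcgr3 are neighbours in that order on chromosome 1 in the RefSeq annotation of mouse assembly GRCm38.p6, with no other protein-coding gene between them. Fcer1g lies a few genes further on the same chromosome, and Fcgr1 lies apart on chromosome 3. Because the data compare how these genes varied among mice, neighbours and Fcgr1 alike, their promoters are shown. Each is the RefSeq sequence from 250 bases before to 50 bases after the annotated start, printed 5′ to 3′ on the gene's strand, and all 5 genes had one in the table. Capitals mark matches on either strand to TTCNNNGAA, the interferon gamma activation site, to GAGGAA, a core bound by the myeloid factor PU.1, and to GAAA repeated after any 2 bases, the core of an interferon-stimulated response element. No matches overlapped.
Fcgr1 (chr3:96293920-96294219, minus strand): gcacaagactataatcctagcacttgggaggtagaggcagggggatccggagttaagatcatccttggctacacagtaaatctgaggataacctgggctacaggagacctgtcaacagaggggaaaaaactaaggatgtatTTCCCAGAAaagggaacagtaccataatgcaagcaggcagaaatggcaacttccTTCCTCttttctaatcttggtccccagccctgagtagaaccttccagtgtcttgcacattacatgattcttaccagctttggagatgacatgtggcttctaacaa
Fcgr3 (chr1:171059354-171059653, minus strand, the first of 2 starts in the table): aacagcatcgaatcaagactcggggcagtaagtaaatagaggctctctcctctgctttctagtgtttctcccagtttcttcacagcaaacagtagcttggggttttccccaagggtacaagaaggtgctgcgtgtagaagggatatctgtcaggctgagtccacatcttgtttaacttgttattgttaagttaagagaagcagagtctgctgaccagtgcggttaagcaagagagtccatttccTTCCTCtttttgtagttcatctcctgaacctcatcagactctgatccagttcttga
Fcgr4 (chr1:171018676-171018975, plus strand): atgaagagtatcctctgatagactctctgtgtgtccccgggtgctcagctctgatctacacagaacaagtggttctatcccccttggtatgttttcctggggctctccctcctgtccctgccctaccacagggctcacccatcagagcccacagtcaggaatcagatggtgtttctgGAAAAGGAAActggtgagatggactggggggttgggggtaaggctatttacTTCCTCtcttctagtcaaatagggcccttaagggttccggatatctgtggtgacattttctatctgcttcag
Fcer1g (chr1:171234300-171234599, minus strand): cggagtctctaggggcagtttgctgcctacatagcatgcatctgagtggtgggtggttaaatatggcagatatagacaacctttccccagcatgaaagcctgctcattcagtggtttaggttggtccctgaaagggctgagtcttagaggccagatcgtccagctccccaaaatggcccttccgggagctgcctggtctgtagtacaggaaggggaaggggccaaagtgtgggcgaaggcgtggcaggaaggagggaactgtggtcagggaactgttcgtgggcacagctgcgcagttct
Fcgr2b (chr1:170976022-170976321, minus strand): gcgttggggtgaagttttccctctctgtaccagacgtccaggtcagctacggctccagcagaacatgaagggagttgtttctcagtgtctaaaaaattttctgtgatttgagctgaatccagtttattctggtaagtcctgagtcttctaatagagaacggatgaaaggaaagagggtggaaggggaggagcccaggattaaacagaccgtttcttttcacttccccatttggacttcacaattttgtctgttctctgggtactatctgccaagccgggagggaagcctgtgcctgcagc

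The interferon gamma activation site was matched in Fcgr1 from base -109 to base -101 before the start, and in none of the other 4 windows. Among 27025 promoters of the same length, 8.47% held such a match. The PU.1 core was matched on the opposite strand in the 3 activating receptors, from base -55 to -50 in Fcgr1, -6 to -1 in Fcgr3 and -22 to -17 in Fcgr4, and 28.3% of all promoters held it. Fcgr4 also held the GAAA repeat from base -73 to -64, as did 3.49% of all promoters. The windows of Fcer1g and Fcgr2b held none of these letters. A match describes the sequence and not binding, which was not measured.

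All 5 genes were well above the median of all probe set rows, 4.70 on the log2 scale, in every mouse, the lowest value being 9.60. Of the sort's markers, Ptprc, which encodes CD45, lay between 11.50 and 11.71 in irradiated mice and between 11.60 and 11.71 in sham mice. Itgam, which encodes CD11b, lay between 10.99 and 11.28 in irradiated mice and between 10.68 and 11.09 in sham mice. Ly6c2, which encodes the Ly6C antigen, was more uneven, from 10.77 to 12.45 in irradiated mice and from 11.03 to 11.98 in sham mice.

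One day after 20 Gy, the Fc gamma receptor genes of the sorted cells stood close to their levels in sham mice. For none of the 5 did the groups of 4 mice separate, where the groups did not overlap for 3.68% of all genes tested. In limma, 0 of the 5 passed an adjusted p of 0.05 and 0 reached an unadjusted p of 0.05. Over all genes 0% passed the adjusted threshold, with 0.545 as the smallest adjusted p, and 6.07% reached the unadjusted one, 2.05% as higher and 4.03% as lower in irradiated mice. By sign alone, 4 of the 5 were higher and 1 lower, against 42.2% and 57.8% of all genes. The differences, irradiated minus sham on the log2 scale, ran from -0.03 for Fcgr3 to 0.12 for Fcgr1, and their median of 0.03 lay beside a median of -0.03 over all genes. The number of arrays limits the precision, and the widest 95% interval, that of Fcgr4, allows anything from 0.735-fold to 1.42-fold of the sham level.

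**Figure D1:**
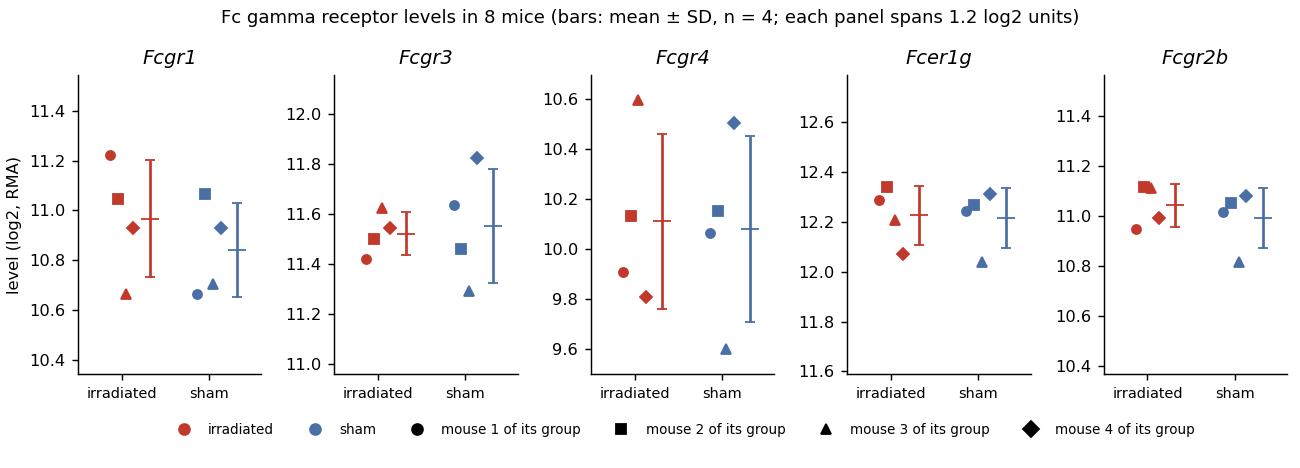
Log2 level of each gene in each mouse, irradiated left of sham, with the mean ± SD of 4 mice beside the points; every panel spans the same height. The groups overlap in all 5 panels, and the points of Fcgr4 are spread most widely, from 9.60 to 10.60.

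Fcgr1, the high-affinity receptor, stood at 11.22, 11.05, 10.66 and 10.93 in irradiated mice 1 to 4, against 10.67, 11.06, 10.71 and 10.93 in sham mice 1 to 4. Irradiated mouse 1 was the highest of the 8 and irradiated mouse 3 the lowest, so the irradiated mice bracketed the sham mice. The group means were 10.97 ± 0.23 in irradiated and 10.84 ± 0.19 in sham mice (SD, n = 4 each). The difference was 0.12 ± 0.14 (SE), with a 95% interval from -0.19 to 0.44, or 1.09-fold, and an adjusted p of 0.911 in limma. It was 0.04 without irradiated mouse 1 and 0.23 without irradiated mouse 3, at an adjusted p no lower than 0.862 under any alternative tried.

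Fcgr3, the low-affinity activating receptor, stood at 11.42, 11.50, 11.63 and 11.54 in irradiated mice, against 11.64, 11.46, 11.29 and 11.82 in sham mice. All 4 irradiated mice lay inside the range of the sham mice, whose spread was wider. The means were 11.52 ± 0.09 in irradiated and 11.55 ± 0.23 in sham mice (SD, n = 4 each), a difference of -0.03 ± 0.13 (SE; 95% interval -0.31 to 0.25; adjusted p = 0.975 in limma). It was -0.12 without sham mouse 3, 0.06 without sham mouse 4, 0.003 without irradiated mouse 1 and -0.21 without sham mice 2 and 3.

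Fcgr4, the receptor for IgG2a and IgG2b, stood at 9.91, 10.13, 10.60 and 9.81 in irradiated mice, against 10.07, 10.15, 9.60 and 10.50 in sham mice. In each group 1 mouse stood high, irradiated mouse 3 and sham mouse 4, and the lowest of all was sham mouse 3. Means of 10.11 ± 0.35 in irradiated and 10.08 ± 0.37 in sham mice (SD, n = 4 each) gave a difference of 0.03 ± 0.21 (SE; 95% interval -0.44 to 0.51; adjusted p = 0.988 in limma). The sign turned without irradiated mouse 3 (-0.13), without sham mouse 3 (-0.13) and without sham mice 2 and 3 together (-0.17).

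Fcer1g, the signalling chain that the activating receptors need to reach the surface, stood at 12.29, 12.34, 12.21 and 12.07 in irradiated mice, against 12.24, 12.27, 12.04 and 12.31 in sham mice. Both groups covered nearly the same span. The difference was 0.01 ± 0.11 (SE; 95% interval -0.22 to 0.25; adjusted p = 0.993 in limma), between 12.23 ± 0.12 in irradiated and 12.21 ± 0.12 in sham mice (SD, n = 4 each). It was -0.05 without sham mouse 3 and 0.06 without irradiated mouse 4.

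Fcgr2b, the inhibitory receptor, stood at 10.95, 11.12, 11.11 and 10.99 in irradiated mice, against 11.01, 11.05, 10.82 and 11.08 in sham mice. Sham mouse 3 lay below the other 7 mice, which were close together. The means were 11.04 ± 0.08 in irradiated and 10.99 ± 0.12 in sham mice (SD, n = 4 each), and the difference of 0.05 ± 0.10 (SE) had a 95% interval from -0.17 to 0.28 and an adjusted p of 0.949 in limma. Without sham mouse 3 it was -0.01.

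**Figure D2:**
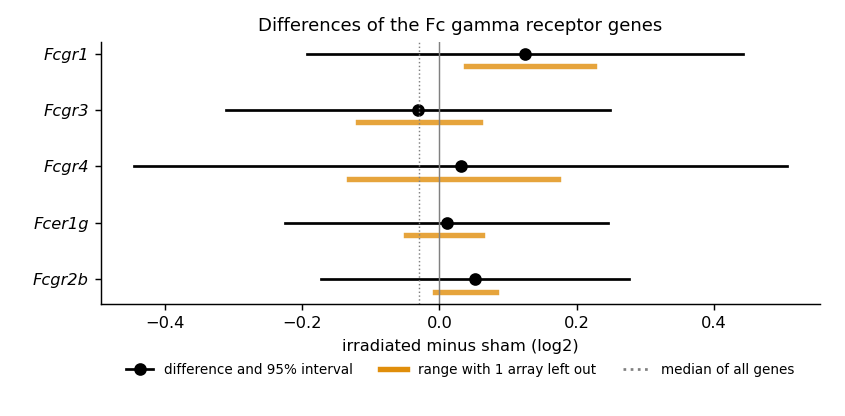
Irradiated minus sham difference of each gene on the log2 scale with its 95% interval (black) and the range of the difference with 1 array left out in turn (orange); the dotted line marks the median of all genes at -0.03. Every interval spans 0, and the range with 1 array left out spans 0 for each gene but Fcgr1, for which it runs from 0.04 to 0.23.

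The genes differed more in how far mice of one group lay apart than in how far the groups lay apart. The residual SD, the spread of mice about their group means, was 0.36 for Fcgr4, larger than that of 88.0% of the 12286 genes at or above the median of all rows. For Fcgr1 it was 0.21, near the median of 0.20 over those genes, and for Fcgr3 0.17. Fcer1g, at 0.12, and Fcgr2b, at 0.10, were among the steadier genes, with 13.6% and 8.82% of those genes below them. The residual SD of Fcgr4 thus exceeded its own group difference of 0.03.

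Fcgr3, Fcgr4, Fcer1g and Fcgr2b were all lowest in sham mouse 3, where they lay below their 8-array means by 0.25, 0.50, 0.18 and 0.20, a description of values that was made after they were seen. Fcgr1 was also low there, at -0.20, but was as low in irradiated mouse 3 and sham mouse 1, at -0.24 in both. Sham mouse 3 had the highest mean of the 8 arrays for the neutrophil, T and NK cell, B cell, dendritic cell, and tumour and stroma marker lists. The tumour and stroma mean ran from 6.30 to 7.45 in irradiated mice and from 6.25 to 7.79 in sham mice, and the dendritic cell mean from 6.11 to 6.40 in irradiated and from 6.36 to 6.62 in sham mice. The neutrophil list mean stood at 8.88 in that mouse, with a range from 6.60 to 8.19 in irradiated mice and from 7.64 to 8.88 in sham mice. Its members did not move together in sham mouse 3. The granule genes Camp, Ngp, Ltf and Lcn2 were highest there, at 10.10, 10.08, 9.31 and 9.88, but the granule genes Mmp8, at 8.61, and Mmp9, at 6.71, were not. Csf3r, the receptor gene for granulocyte colony-stimulating factor, was lowest of the 8 arrays in sham mouse 3, at 8.07. Camp and Ngp were next highest in sham mouse 2, at 8.02 and 7.78 (all named after their values were seen). Of the 12 measured neutrophil genes 10 were lower in irradiated mice, and the defining marker Ly6g lay at 3.63 to 5.39 in irradiated mice and 4.44 to 5.22 in sham mice. The T and NK cell list mean ran from 5.37 to 6.79 in irradiated mice and from 5.47 to 7.81 in sham mice, with sham mouse 3 highest and sham mouse 2 next at 7.62. Of its 13 genes 11 were lower in irradiated mice, against 57.8% of all genes. Only 1 reached an unadjusted p of 0.05 in limma, as lower, where 4.03% of all genes did so. The B cell list, with 7 of 8 genes lower in irradiated mice, ran from 4.49 to 5.14 in irradiated mice and from 4.70 to 5.90 in sham mice. In that list too, 1 gene reached an unadjusted p of 0.05 in limma, as lower. No gene of the neutrophil, T and NK cell or B cell list passed the adjusted threshold. In such bulk samples, fewer cells of a type and less RNA per cell cannot be told apart. Neutrophils, NK cells and B cells carry Fc gamma receptors too. What these cells contribute to the levels was not tested, and the values at hand are those without sham mice 2 and 3 and the relations to the marker lists given further on.

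**Figure D3:**
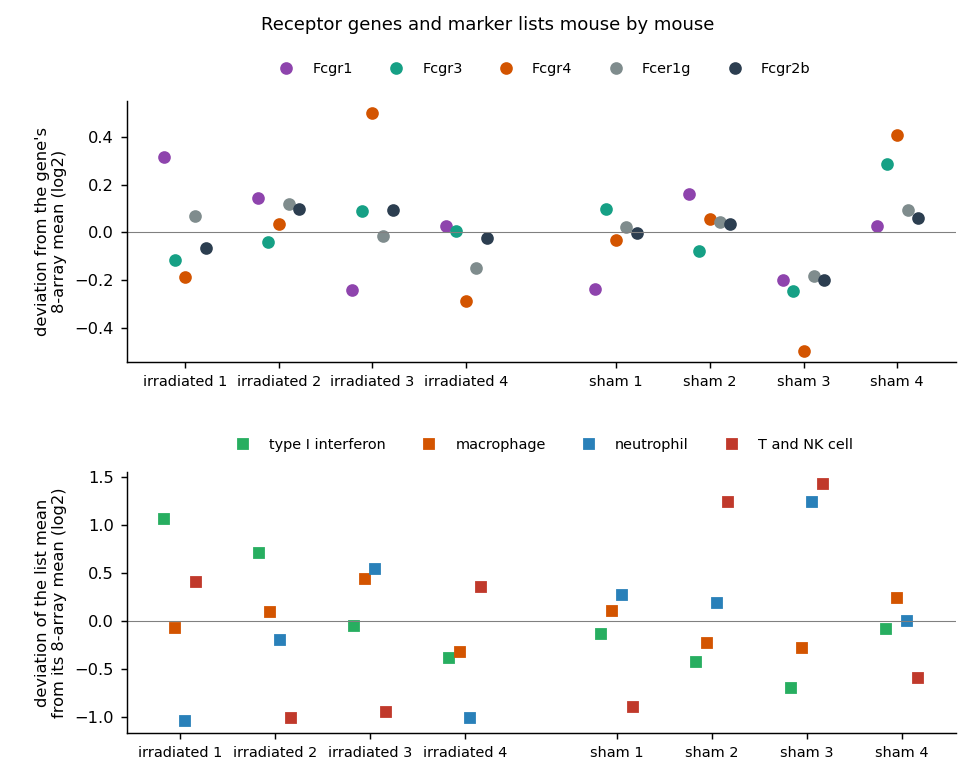
Top, deviation of each receptor gene from its mean over 8 arrays (log2), mouse by mouse; bottom, the same for the means of 4 gene lists. Sham mouse 3 is below 0 for all 5 genes and highest for the means of the neutrophil and the T and NK cell lists. Of the neutrophil list, Camp, Ngp, Ltf and Lcn2 were highest and Csf3r lowest in that mouse.

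Across the 8 mice, the closest pair of receptor genes was the inhibitory Fcgr2b and its neighbour Fcgr4, at a Pearson r of 0.85 (two-sided exact permutation p = 0.00523, adjusted p = 0.0523 over the 10 pairs of genes) and a Spearman rho of 0.83 (exact permutation p = 0.0154, adjusted p = 0.154). Without irradiated mouse 3 and sham mouse 3, the mice farthest from the median of Fcgr4, r was 0.70, and within the groups it was 0.87. Fcgr3 and Fcgr4 had an r of 0.78 (exact permutation p = 0.0233, adjusted p = 0.117) and a rho of 0.60 (exact permutation p = 0.132, adjusted p = 0.347), with an r of 0.47 without sham mice 3 and 4. Fcgr2b and Fcgr3 had an r of 0.68 (exact permutation p = 0.0652, adjusted p = 0.163), or 0.35 without sham mice 3 and 4. The r of Fcgr1 with the other genes was -0.19 with Fcgr3, -0.12 with Fcgr4, 0.12 with Fcgr2b and 0.49 with Fcer1g. Without irradiated mice 1 and 3, the mice farthest from the median of Fcgr1, these were 0.10, 0.45, 0.69 and 0.49, so no contrast between Fcgr1 and the neighbouring genes was established. No pair passed after adjustment. The pairs were chosen after the levels had been seen, and genes on the same arrays share their RNA, amplification and normalization.

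The receptors were also set against the means of 5 lists, 25 relations in all, and none passed after adjustment. The closest was that of Fcgr4 with 12 macrophage markers, among them Mertk, C1qa and Apoe, with a Pearson r of 0.87 (two-sided exact permutation p = 0.00575, adjusted p = 0.144) and a Spearman rho of 0.81 (exact permutation p = 0.0218, adjusted p = 0.181). The macrophage mean was 9.27, 9.43, 9.78 and 9.02 in irradiated mice and 9.45, 9.11, 9.06 and 9.58 in sham mice, so the mice highest for Fcgr4 were highest for this list in both groups. Within the groups r was 0.87, and without irradiated mice 3 and 4 it was 0.76. Fcgr3 and Fcgr2b had an r of 0.68 and 0.67 with the macrophage list, and Fcgr1 of -0.31. Without irradiated mice 3 and 4 these were 0.88, 0.67 and -0.02. With 7 genes of Ly6C-high monocytes, such as Ccr2 and Chil3, Fcgr1 had an r of 0.76 (exact permutation p = 0.0228, adjusted p = 0.199). The rho of Fcgr1 with that list was 0.88 (exact permutation p = 0.00724, adjusted p = 0.181), and its r was 0.53 without irradiated mice 1 and 3. Fcgr4 had an r of -0.65 with that list, or -0.31 without those mice. Against the T and NK cell list, r was -0.72 for Fcgr2b (exact permutation p = 0.0345, adjusted p = 0.199), with a rho of -0.81 and an r of -0.84 without sham mice 2 and 3. Fcgr3 had an r of -0.71 with it (exact permutation p = 0.0441, adjusted p = 0.199), or -0.45 without those mice. Fcgr1 had an r of -0.72 with the neutrophil list (exact permutation p = 0.0453, adjusted p = 0.199), or -0.46 without irradiated mouse 1 and sham mouse 3. For Fcgr4 the r with the neutrophil list was 0.08, or 0.73 without those mice, so its relation was not particular to the macrophage list in that setting.

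Fcgr1 was highest in irradiated mouse 1, the mouse with the highest type I interferon genes. The mean of 15 such genes stood at 9.30, 8.94, 8.18 and 7.84 in irradiated mice, against 8.10, 7.81, 7.53 and 8.15 in sham mice, and all 15 were higher in irradiated mice, where 42.2% of all genes were. The r of Fcgr1 with this mean was 0.63 (exact permutation p = 0.107, adjusted p = 0.243) and the rho 0.24 (exact permutation p = 0.582, adjusted p = 0.728). Without irradiated mice 1 and 2 the r was -0.16, so the relation rests on those mice. The closest to the interferon mean was Fcer1g, with an r of 0.68 (exact permutation p = 0.0527, adjusted p = 0.199) and a rho of 0.67, an r of 0.81 within the groups and of 0.72 without irradiated mice 1 and 2. For Fcgr3 the r with the interferon mean was 0.01 over 8 mice and 0.91 without irradiated mice 1 and 2. The same values were 0.15 and 0.87 for Fcgr4, and 0.29 and 0.87 for Fcgr2b. In the interferon list Ifi204, a DNA sensor gene, differed by 0.43 ± 0.13 (SE; unadjusted p = 0.00743 in limma), with every irradiated mouse above every sham mouse. Mx1, an antiviral GTPase gene, differed by 1.32 ± 0.42 (SE; unadjusted p = 0.0104 in limma), and its groups overlapped. Each had an adjusted p of 0.819 in limma. Of the 15 genes, 5 reached an unadjusted p of 0.05 as higher in irradiated mice, against 2.05% of all genes.

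**Figure D4:**
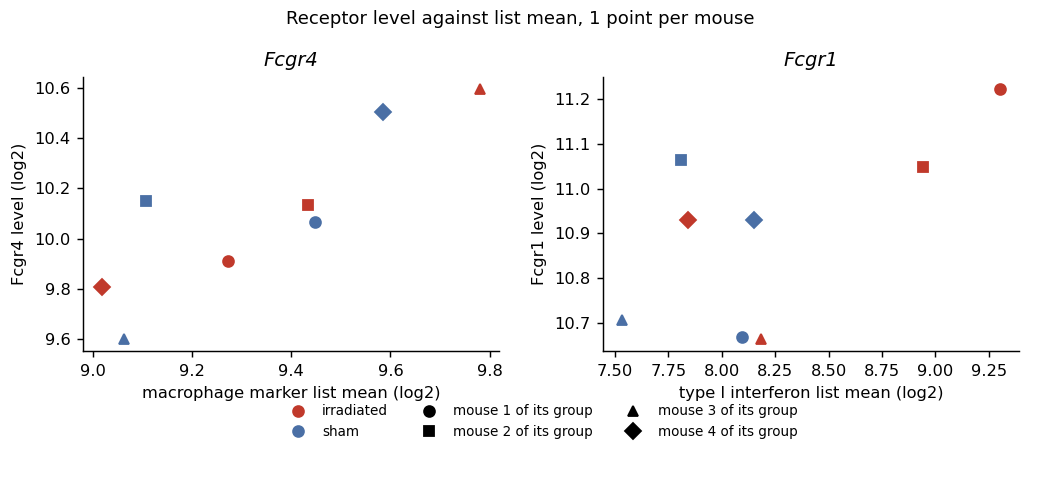
Left, Fcgr4 level against the mean of 12 macrophage markers; right, Fcgr1 level against the mean of 15 type I interferon genes; each point is 1 mouse and all axes are log2. On the left, r is 0.87 over the 8 mice (two-sided exact permutation, adjusted p = 0.144). Sham mouse 1 has a higher macrophage mean than sham mouse 2 but a lower Fcgr4 level. On the right, irradiated mice 1 and 2 stand apart from the other 6.

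The balance of activating and inhibitory receptors was read within each array, as the level of an activating gene minus that of Fcgr2b. Probe sets differ in their response, so only changes of this quantity between mice can be read, not its size. For Fcgr4 it was -1.04, -0.98, -0.52 and -1.19 in irradiated mice, against -0.95, -0.90, -1.22 and -0.58 in sham mice. The group means differed by -0.02, and the groups overlapped throughout. For Fcgr3 the means were 0.48 ± 0.07 in irradiated and 0.56 ± 0.15 in sham mice (SD, n = 4 each), a difference of -0.08. For Fcgr1 they were -0.08 ± 0.29 in irradiated and -0.15 ± 0.15 in sham mice, a difference of 0.07, with irradiated mouse 1 highest at 0.27 and irradiated mouse 3 lowest at -0.45. Being made from genes chosen for description, these balances were not tested.

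In 8 lists of signalling, partner and regulator genes, 94 distinct genes were measured, of which 40 were higher and 54 lower in irradiated mice, with a median difference of -0.02. None of the 94 passed the adjusted threshold, and the type I interferon list was left out of this total. With that list added, 7 of 109 distinct genes reached an unadjusted p of 0.05 in limma, or 6.42%. Without it 2 did, or 2.13%, against 6.07% of all genes. One of them was Dok2, which encodes an adaptor that restrains Ras signalling, at 6.02, 6.14, 6.21 and 6.20 in irradiated mice against 5.98, 5.95, 5.74 and 5.84 in sham mice. Every irradiated mouse was above every sham mouse, with a difference of 0.27 ± 0.10 (SE; unadjusted p = 0.0238, adjusted p = 0.819 in limma). The other was Ifngr1, which encodes the ligand-binding chain of the interferon gamma receptor, at 10.67, 10.56, 10.35 and 10.47 in irradiated mice against 10.79, 11.05, 10.61 and 10.82 in sham mice. Irradiated mouse 1 overlapped sham mouse 3, and the difference was -0.30 ± 0.12 (SE; unadjusted p = 0.0314, adjusted p = 0.819 in limma), or -0.22 without sham mouse 2.

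Among the kinases that act on the receptor tails, 4 of 6 measured genes were higher in irradiated mice, with differences from -0.05 to 0.12, and all 6 were higher after quantile normalization. Syk, which binds the phosphorylated ITAM, differed by 0.12 ± 0.13 (SE) and the Tec family kinase gene Tec by 0.08 ± 0.11. With each array left out in turn Syk ran from 0.0546 to 0.21 and Tec from 0.0311 to 0.14, and without sham mice 2 and 3 they were 0.0307 and 0.0055. Of 13 adaptors and effectors 3 were higher, a count that became 11 after quantile normalization, 10 without sham mouse 4, 7 without irradiated mouse 3 and 5 without irradiated mouse 1. Prkcd, a protein kinase C gene, differed by 0.19 ± 0.13 and Card9, which links Syk to NF-kB, by -0.25 ± 0.17. With each array left out in turn Prkcd ran from 0.0952 to 0.30 and Card9 from -0.39 to -0.15. Of the 12 genes that brake the pathway, such as Inpp5d, the gene of SHIP1, 6 were higher, or 4 without sham mice 2 and 3 and 3 without irradiated mouse 1, and the ubiquitin ligase gene Cblb stood at -0.30 ± 0.14, or -0.17 without sham mouse 3. The phagocytic actin and oxidase genes spanned -0.11 to 0.08, with 3 of 12 higher, or 5 after either quantile normalization or subtraction of array medians, 7 without irradiated mouse 3 and 6 without sham mouse 2. The small GTPase gene Rac1 differed by 0.08 ± 0.09 and the actin regulator gene Was by -0.10 ± 0.09.

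Of 12 measured partners of the common gamma chain and related genes, 6 were higher and 6 lower, with a median difference of 0.002. The count of higher genes was 8 under both of those scalings, 4 without sham mice 2 and 3, 1 without sham mouse 3, and 2 without irradiated mouse 2 or irradiated mouse 3. The fungal and mycobacterial lectin receptor gene Clec4e averaged 11.63 ± 0.12 in irradiated and 11.60 ± 0.32 in sham mice, Clec4d 11.11 ± 0.19 in irradiated and 11.10 ± 0.31 in sham mice, and Clec4n, the gene of a further lectin receptor, 11.54 ± 0.19 in irradiated and 11.52 ± 0.38 in sham mice (SD, n = 4 each; named after their values were seen). The sister adaptor gene Tyrobp, which encodes DAP12, averaged 12.58 ± 0.07 in irradiated and 12.61 ± 0.02 in sham mice (SD, n = 4 each; also named after its values were seen). The members of this list with the smallest p were the NK cell receptor gene Ncr1, at -0.34 ± 0.30 (SE), and the adaptor gene Hcst, at -0.30 ± 0.27. Without sham mice 2 and 3, the mice with the most T and NK cell markers, these became 0.24 and 0.16. Of 11 genes listed as other inhibitory receptors of myeloid cells, 4 were higher, or 6 after quantile normalization and 8 without irradiated mouse 4. Clec12a stood at -0.24 ± 0.14 and the sialic acid receptor gene Siglece at -0.27 ± 0.18. Clec12a was -0.16 without irradiated mouse 4, and Siglece -0.15 without sham mouse 4 and -0.58 without sham mice 2 and 3.

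Among 14 other Fc receptor genes 6 were higher. The B cell IgM receptor gene Fcmr had the smallest p, at -0.67 ± 0.41 (SE), and was -0.04 without sham mice 2 and 3. The polymeric immunoglobulin receptor gene Pigr, at 0.16 ± 0.11, averaged 4.14 ± 0.18 in irradiated and 3.98 ± 0.09 in sham mice (SD, n = 4 each), under the median of all rows. Fcer1a and Ms4a2, the chains that pair with the common gamma chain in mast cells and basophils, were also below that median, at 2.54 ± 0.19 and 3.64 ± 0.10 in irradiated and 2.61 ± 0.25 and 3.61 ± 0.10 in sham mice (SD, n = 4 each). Of 14 genes known to control Fc gamma receptor expression 8 were higher, or 10 after quantile normalization, 4 without sham mice 2 and 3, 2 without sham mouse 3 and 5 without sham mouse 2. Besides Ifngr1, the transcription factor gene Cebpb had the smallest p there, at 0.19 ± 0.10 (SE) and an adjusted p of 0.822 in limma.

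**Figure D5:**
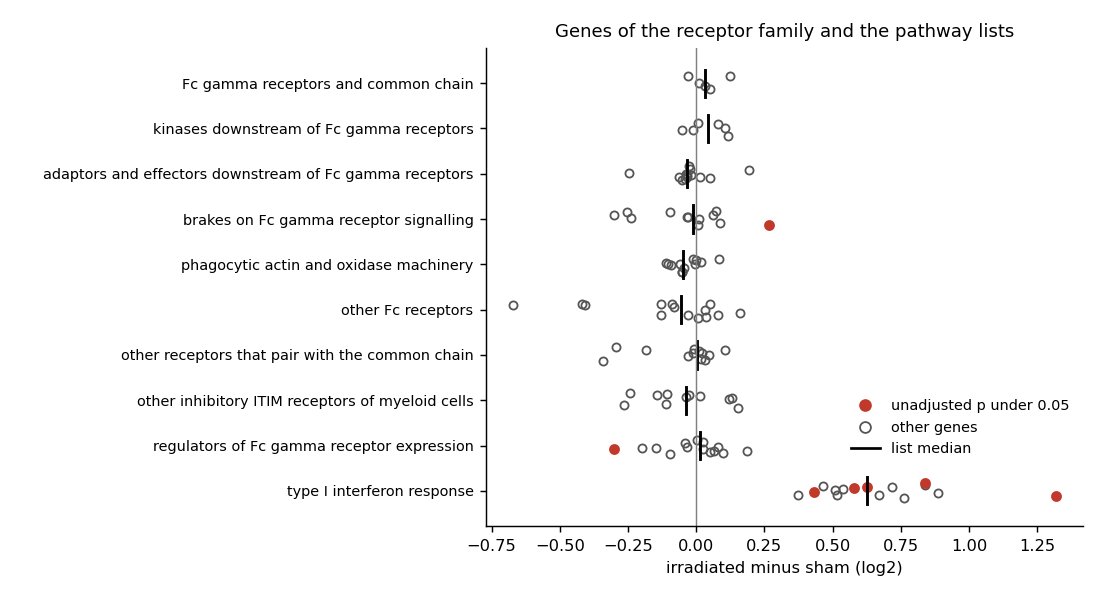
Irradiated minus sham difference (log2) of each measured gene, by list; filled red points have an unadjusted p under 0.05 and the black bar is the list median. All medians but that of the type I interferon genes, at 0.63, lie between -0.06 and 0.04.

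The genes whose levels most resembled each receptor over the 8 arrays were looked up among 12285 genes at or above the median of all rows, with Pearson's r as the measure. Fcgr1 was most like Commd2 (r = 0.98), 4931428F04Rik and the nuclear envelope gene Tor1aip1. Fcgr3 was most like Tmem30a (r = 0.98), which encodes a subunit of lipid flippases, Cnppd1, and Inppl1, which encodes the lipid phosphatase SHIP2. For Fcgr4 these were Homer1 (r = 0.97), Sypl and Mocos, and for Fcer1g they were Osbpl11 (r = 0.99), Igsf6 and the intramembrane protease gene Sppl2a. Fcgr2b was most like Nudt9 (r = 0.97) and the predicted genes Gm11696 and Gm5464. These r values were picked as the highest of a long search over 8 arrays and are a description with no test.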

How the data were processed

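Total RNA of 8 sorted cell samples, 25 ng each, was amplified by ribo-SPIA and labelled with biotin, per the labels' protocols. The authors deposited log2 expression values per probe set, made with RMA and Partek, per the submitters' processing notes, which give no versions or settings; the log2 scale was read from the values. Groups were taken from sample titles. Array medians lay between 4.68 and 4.73, and arrays correlated at 0.976 to 0.988. Of 34365 rows, 23521 carried 1 gene symbol in the platform annotation; the brightest row of each symbol was kept, leaving 22180 genes.

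The main comparison, irradiated minus sham, was a two-sided moderated test from limma 3.58.1 (R 4.3.3); p-values for all 22180 genes were adjusted together by Benjamini-Hochberg and called at 0.05. No filter on dim genes was applied. The limma p-values set the group difference against the spread between mice, with the variance moderated across genes. The fit was also run on simulated data with independent noise per gene. The differences put in were larger than those of the receptor genes, so detection at their size was not assessed. Correlations used exact permutation of the 8 arrays. Genes named by rule were the 5 receptor genes, the 2 genes of each pathway list with the smallest p and the 3 most alike genes per receptor. Ptprc, Itgam and Ly6c2 of the sort were named as well. Others, such as Ly6g, Fcer1a, Ms4a2, Inpp5d and the examples of marker lists, were named outside this rule, and not all of them are marked. The members and lists were chosen with earlier results of these data known. Promoters came from RefSeq tables of GRCm38.p6, whose build need not be that of the array annotation. The fit was repeated with 1 array left out in turn, without sham mice 2 and 3, with the mouse number as a block, with array weights, with a robust trended variance, after quantile normalization or centring on array medians, without dim genes, and with rows averaged per gene or all kept. The member pairs were added after the levels were seen.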

Additional observations from a re-analysis of the deposited data

How the results depend on the processing

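No setting brought any of the 5 receptor genes past the adjusted threshold in limma, and the adjusted p ranged from 0.792, for Fcgr3 without sham mice 2 and 3, upwards. The difference of Fcgr1 was positive in every setting. Differences so near 0 changed sign in others. With each array left out in turn they ranged from -0.12 to 0.0593 for Fcgr3, from -0.13 to 0.17 for Fcgr4, from -0.0484 to 0.0622 for Fcer1g and from -0.0068 to 0.0826 for Fcgr2b, and among the sort markers from -0.0636 to 0.0065 for Ptprc and from -0.0204 to 0.54 for Ly6c2. Without sham mice 2 and 3 they were -0.17 for Fcgr4, -0.0527 for Fcer1g, -0.0046 for Fcgr2b, 0.24 for Ncr1 and 0.16 for Hcst, and with array weights Fcer1g was at -0.0036. The count of pathway genes outside the type I interferon list at an unadjusted p under 0.05, 2 of 94, ran from 1 to 4 with 1 array left out. It was 1 with the mouse number as a replicate block, where the adjusted p of the receptor genes ran from 0.961 to 0.997. The sample titles name no pairs of mice. Deviations of same-numbered mice correlated at -0.28 to -0.14 and those of other pairs at -0.23 to 0.27, so no pairing by number was seen. The block changed no call. Without the 2 arrays farthest from the list's median, r changed sign for Fcgr1 against type I interferon genes (-0.16), for Fcgr3, Fcer1g and Fcgr2b against neutrophil markers (0.21, 0.54 and 0.53) and for Fcer1g against Ly6C-high monocyte genes (-0.28). The cause of these shifts was not tested. Array number and the spread of Fcgr4 limit what could be seen. Signal over background was not measured.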
